A study of Homo sapiens with 8 samples.

Results

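The miR-23/27/24 miRNAs are encoded by a pair of paralogous gene clusters, cluster a on chromosome 19 and cluster b on chromosome 9, and their abundance was compared across 4 human cancer cell lines. The members were chosen by name: 10 mature miRNAs, held in 11 table entries, of 2588 mature miRNA names and 2813 entries in all. Cluster a gives hsa-miR-23a-3p, hsa-miR-23a-5p, hsa-miR-27a-3p, hsa-miR-27a-5p and hsa-miR-24-2-5p, and cluster b gives hsa-miR-23b-3p, hsa-miR-27b-3p, hsa-miR-27b-5p and hsa-miR-24-1-5p (the prefix for human is left out below). hsa-miR-24-3p is made by both clusters and has an entry for each. Small RNA-seq had been done on ES-2 (derived from an ovarian cancer), MV-3 (melanoma), Huh-7 (hepatocellular carcinoma) and A-549 (lung adenocarcinoma), with 2 replicate libraries per line and 8 in all. All were parental cells, harvested 48 h after seeding and without any treatment, so cell line was the only factor. Each cancer type is represented by 1 line, and in such bulk libraries fewer cells carrying a miRNA and less of it per cell cannot be told apart.

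A miRNA is cut from a hairpin in a longer primary transcript and guides Argonaute proteins to mRNAs that pair with its seed, the bases just behind its 5′ end. Each arm of a hairpin can give a mature miRNA, named 5p or 3p, and usually 1 arm is kept while the other is degraded. The vertebrate clusters a and b arose by duplication, each holds a miR-23, a miR-27 and a miR-24 hairpin on 1 primary transcript, and their products are known from studies of angiogenesis, adipogenesis, haematopoiesis and tumour growth.

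By RefSeq (GRCh38.p14), the hairpins of cluster a lie on the minus strand of chromosome 19 within 373 bases, chr19:13836287-13836659. Those of cluster b lie on the plus strand of chromosome 9 within 881 bases, chr9:95085208-95086088. By the GENCODE annotation, cluster a is in an exon of the long non-coding RNA gene MIR23AHG, and cluster b is inside the protein-coding gene AOPEP. All 7 AOPEP transcripts of that annotation that span cluster b carry MIR23B and MIR27B in introns, and 1 of them has MIR24-1 in an exon. The RefSeq mature sequences are printed here because the comparison of the clusters rests on telling the paralogs apart. They are written 5′ to 3′ with the seed, bases 2 to 8, in capitals.
hsa-miR-23a-3p: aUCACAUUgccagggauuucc
hsa-miR-23b-3p: aUCACAUUgccagggauuaccac
hsa-miR-27a-3p: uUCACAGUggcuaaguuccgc
hsa-miR-27b-3p: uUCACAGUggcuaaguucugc
hsa-miR-24-3p: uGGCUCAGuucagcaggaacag
hsa-miR-24-2-5p: uGCCUACUgagcugaaacacag
hsa-miR-24-1-5p: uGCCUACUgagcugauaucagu
hsa-miR-27a-5p: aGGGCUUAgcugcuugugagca
hsa-miR-27b-5p: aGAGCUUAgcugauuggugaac
hsa-miR-23a-5p: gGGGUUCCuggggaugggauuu

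Each paralogous pair of 3p arms shares its seed. Counted from the 5′ end, miR-23a-3p and miR-23b-3p are identical over the first 18 bases and differ by U19A, and miR-23b-3p is 2 bases longer. Likewise, miR-27a-3p and miR-27b-3p are identical to each other over their first 18 bases and differ by C19U. A read that ends within those bases would match both members of its pair, and how such reads were assigned was not stated. The pair miR-24-2-5p and miR-24-1-5p shares 15 bases and the seed, with 6 differences behind them. In contrast, miR-27a-5p and miR-27b-5p differ at 8 positions, 1 of which, G3A, is in the seed. The 2 genomic copies of miR-24-3p have 1 and the same mature sequence.

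Libraries held 1173902 to 2670030 miRNA reads. The deposited values are counts per 1000000 reads (CPM) scaled by edgeR's trimmed mean of M values (TMM), and they are called normalised CPM here. In this unit 3 reads, taken as the detection floor, amount to 0.845 to 2.45, and floors and intervals cover counting error only. Replicate libraries of a line differed by more than counting noise, with a chi-square per degree of freedom of 8.53 in ES-2 and 15.6 in A-549 at the extremes. Of the lines' marker miRNAs, the hepatic miR-122-5p was at 83721 normalised CPM in Huh-7 and at most at 32.8 elsewhere. The melanocytic miR-211-5p had 0 reads in MV-3, and miR-146a-5p, also listed for MV-3, was at 559 normalised CPM there and at 4165 in Huh-7. The epithelial miR-200c-3p was at 120 in Huh-7, 79.9 in A-549, 44.5 in ES-2 and 18.6 in MV-3. For miR-200b-3p the values were 1853 in Huh-7, 1354 in A-549, 17.0 in MV-3 and 7.85 in ES-2. The mesenchymal miR-199a-3p was at 7245 in MV-3, 4731 in ES-2, 8.81 in A-549 and 6.73 in Huh-7. Of the blood markers, miR-142-3p was at 357 normalised CPM in ES-2 and had 0 reads in the other lines, while miR-223-3p and miR-451a had at most 4 reads in a line. The part of any of these in the results was not tested.

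Cluster a was abundant in ES-2, MV-3 and A-549 and low in Huh-7. Its main product, miR-23a-3p, was at 27619 and 24810.2 normalised CPM in the MV-3 replicates, 16919.8 and 16202 in A-549, 12079 and 12717 in ES-2, and 2237 and 1881 in Huh-7. The replicates of no line overlapped those of another, and the highest line, MV-3, exceeded the lowest, Huh-7, by 12.7-fold. miR-27a-3p, known as a regulator of adipogenesis, was at 3731 and 4217 normalised CPM in MV-3, 3946 and 3119 in A-549, 2744 and 2570.4 in ES-2, and 393.6 and 379.8 in Huh-7. Huh-7 was again lowest, by 10.3-fold against MV-3, and here MV-3 and A-549 overlapped. When libraries were scaled by their miRNA reads alone, without the TMM factor, A-549 and ES-2 changed places for both miRNAs.

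Cluster b followed another order, with A-549 highest and ES-2 lowest. miR-23b-3p was at 11563 and 11081 normalised CPM in A-549, 3729.9 and 3485 in Huh-7, 3491 and 3219.6 in MV-3, and 411 and 442 in ES-2. A-549 exceeded ES-2 by 26.6-fold, and MV-3 and Huh-7 overlapped. miR-27b-3p was at 23684 and 22001 normalised CPM in A-549, 7299 and 6807 in Huh-7, 6738 and 6683 in MV-3, and 889.9 and 993 in ES-2. The order was the same, with 24.3-fold between A-549 and ES-2. Huh-7, the poorest line in cluster a, thus had cluster b levels close to those of MV-3, and ES-2, with ample cluster a, had the least of cluster b.

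**Figure D1:**
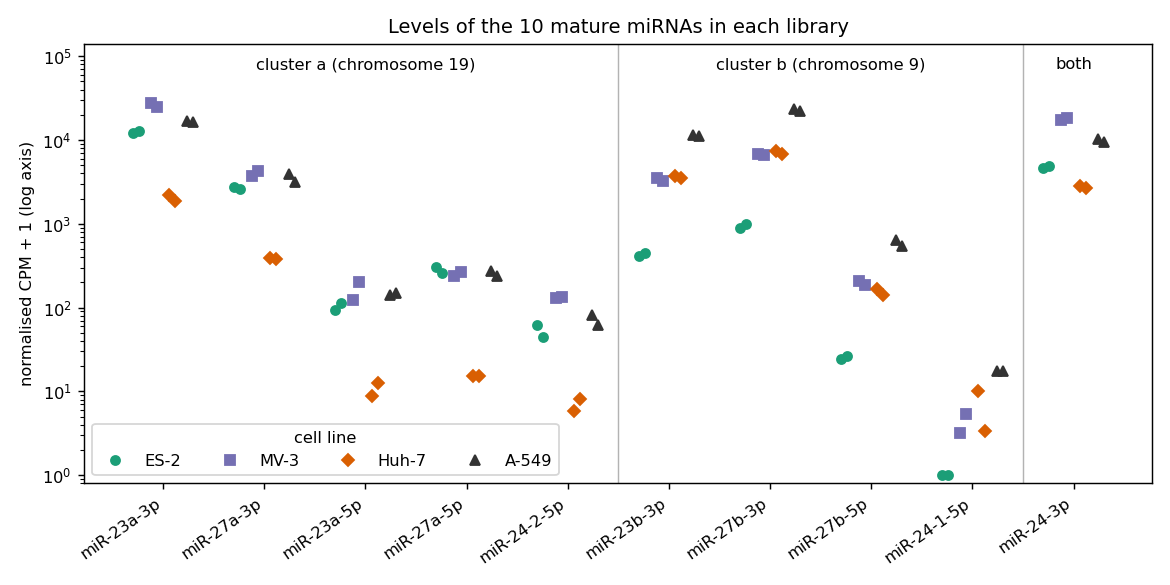
Levels of the 10 miRNAs in each of the 8 libraries, as normalised CPM + 1 on a log axis, with 1 symbol per library and 1 colour and shape per cell line. In cluster a the Huh-7 symbols lie below those of the other lines for each miRNA, and in cluster b the ES-2 symbols do.

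miR-24-3p, known for acting on cell cycle genes and made by both clusters, resembled cluster a in its order. It was at 17309.6 and 18519 normalised CPM in MV-3, 10271 and 9487 in A-549, 4679 and 4873 in ES-2, and 2826 and 2659.8 in Huh-7. No lines overlapped, and MV-3 exceeded Huh-7 by 6.53-fold, a narrower range than that of any other 3p arm of the clusters. Under library scaling alone, ES-2 in place of Huh-7 was lowest.

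The minor arms were far less abundant. miR-27a-5p averaged 281 ± 28.6 normalised CPM (SD, n = 2 here and below) in ES-2, 254 ± 25.8 in A-549, 249 ± 18.5 in MV-3 and 14.4 ± 0.0113 in Huh-7. ES-2, MV-3 and A-549 could not be ranked, as neighbours in the order overlapped, and Huh-7 was lower by 19.6-fold than ES-2. miR-23a-5p averaged 161 ± 55.8 in MV-3, 145 ± 6.59 in A-549, 103 ± 13.8 in ES-2 and 9.75 ± 2.64 in Huh-7. Averages of miR-24-2-5p were 132 ± 2.56 in MV-3, 71.3 ± 14.1 in A-549, 52.5 ± 13.2 in ES-2 and 5.98 ± 1.69 in Huh-7. Each of the 3 minor arms of cluster a was therefore lowest in Huh-7, without overlap.

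Both minor arms of cluster b were lowest in ES-2 and highest in A-549. miR-27b-5p averaged 593 ± 72.9 normalised CPM in A-549, 153 ± 19.9 in Huh-7, 198 ± 16.2 in MV-3 and 24.6 ± 1.47 in ES-2. Under library scaling alone, its order of MV-3 and Huh-7 was turned and their replicates overlapped, and so did those of A-549 and Huh-7 for miR-24-1-5p. miR-24-1-5p was close to the floor, with 27 and 20 reads in A-549, 32 and 7 in Huh-7, 3 and 8 in MV-3, and 0 and 0 in ES-2. It passed the filter on low reads through the lines where it was high, so a difference from ES-2 had to follow. Against the floor of 3 reads per library in ES-2, A-549 was at least 9.10-fold higher and Huh-7 at least 3.15-fold, while MV-3 was itself near the floor. The bound for Huh-7 rested on its replicate 1, as it was 1.32-fold without that library and 4.97-fold without replicate 2.

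Which of these differences exceeded the spread between replicates was tested with limma over 528 miRNA names that passed the filter, the 10 members included. A miRNA is called where its Benjamini-Hochberg adjusted p, taken over the 528 names, was below 0.01. Among the 4 lines, all 9 members other than miR-24-1-5p were called, while 68.2% of the tested names were. miR-24-1-5p is left out of the counts of members called that involve ES-2, since it had passed the filter without any read there. Fold changes are given as log2 of the first line named over the second, from log2(normalised CPM + 1), a scale that understates changes of rare miRNAs. The 6 pairs of lines share libraries and are not independent of each other. Scaling by library reads alone shifted the log2 fold change of each name, and the median shift over the tested names is given here. Relative to ES-2 it was 0.87 in Huh-7, 0.40 in MV-3 and -0.50 in A-549. Relative to Huh-7 it was -1.33 in A-549, and relative to MV-3 it was 0.52 in Huh-7 and -0.88 in A-549.

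Huh-7 and ES-2, the lines in which the study examined its RNA-binding protein IGF2BP1 by mRNA sequencing, differed in opposite directions in the clusters. All 9 members other than miR-24-1-5p were called, with 49.2% called over the tested names. miR-23b-3p, miR-27b-3p and miR-27b-5p were higher in Huh-7, against 27.7% of names called higher, and the 5 of cluster a were lower together with miR-24-3p, against 21.6% called lower. The log2 fold change was -2.59 (SE 0.097, limma adjusted p = 1.61e-06) for miR-23a-3p and 3.08 (SE 0.072, limma adjusted p = 1.95e-07) for its paralog miR-23b-3p. For the miR-27 pair it was -2.78 for miR-27a-3p and 2.90 for miR-27b-3p. The median absolute log2 fold change was 2.84 over the members, also with miR-24-1-5p set to its bound, and 1.32 over the tested names. Under library scaling alone, miR-23a-3p stood at -1.63 and miR-23b-3p at 4.04, so both directions held, but miR-24-3p, at -0.80 with TMM scaling, moved to 0.16 and was no longer called.

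MV-3 differed from ES-2 mainly by its cluster b. The 5 members called, against 25.8% of tested names, were all higher in MV-3, where 11.6% of names were called higher and 14.2% lower. They comprised miR-23b-3p (log2 fold change 2.97), miR-27b-5p (2.96), miR-27b-3p (2.83), miR-24-3p (1.91) and miR-23a-3p (1.08). miR-27a-3p at 0.58 and miR-24-2-5p at 1.34 did not pass at limma adjusted p of 0.0117 and 0.0142, and did when the recovered reads were tested with edgeR instead, at adjusted p of 0.00515 and 0.00709. Under library scaling alone, limma called miR-27a-3p (1.02) and miR-24-2-5p (1.77) higher in MV-3 too, with miR-23a-3p at 1.52. miR-23a-5p (1.04) and miR-27a-5p (0.27) were not called, and miR-23b-3p stood at 3.41. The median absolute log2 fold change was 1.62 over the members, or 1.21 with miR-24-1-5p at its bound, and 0.79 over the tested names.

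A-549 exceeded ES-2 in cluster b, whereas limma called no cluster a member. Called were 4 members besides miR-24-1-5p, all higher in A-549, against 41.3% of names called, 23.7% higher and 17.6% lower. miR-23b-3p had a log2 fold change of 4.73 (SE 0.072, limma adjusted p = 1.94e-07), miR-27b-3p of 4.60, miR-27b-5p of 4.53 and miR-24-3p of 1.05. The cluster a members lay between -0.15 for miR-27a-5p and 0.50 for miR-23a-5p, without a call by limma. On recovered reads, however, miR-23a-3p was called higher in A-549 by edgeR (adjusted p = 0.00671) and DESeq2 (log2 fold change 0.52, adjusted p = 8.83e-09), and DESeq2 also called miR-27a-3p (0.51, adjusted p = 0.000951). With the replicate number as a block, limma called miR-23a-3p too (adjusted p = 0.00880). For miR-23a-3p (0.42, limma adjusted p = 0.0113) the direction depended on the scaling, as it did for miR-27a-3p, miR-23a-5p and miR-24-2-5p, with a log2 fold change of -0.095 for miR-23a-3p under library scaling alone. The median absolute log2 fold change was 0.77 over the members and 1.21 over the tested names.

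Between Huh-7 and MV-3 it was cluster a that differed. Called were 6 members, all lower in Huh-7, against 47% of names called, 20.1% lower and 26.9% higher. They were the 5 members of cluster a, from -3.36 for miR-27a-3p to -4.27 for miR-24-2-5p on the log2 scale, and miR-24-3p at -2.71. miR-23b-3p, at 0.10 (SE 0.072, limma adjusted p = 0.259), and miR-27b-3p, at 0.071 (SE 0.075, limma adjusted p = 0.455), were not called. Under library scaling alone, however, miR-23b-3p at 0.62 and miR-27b-3p at 0.59 were called higher in Huh-7. The median absolute log2 fold change was 3.03 over the members and 1.44 over the tested names.

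A-549 exceeded MV-3 in cluster b and had less of miR-23a-3p and miR-24-3p. Of the 5 members called, against 39.6% of names, 3 were higher in A-549 (24.1% of names) and 2 lower (15.5%). On the log2 scale they stood at 1.76 for miR-23b-3p, 1.77 for miR-27b-3p, 1.57 for miR-27b-5p, -0.66 for miR-23a-3p and -0.86 for miR-24-3p. The call of miR-23a-3p (limma adjusted p = 0.00156) rested on few libraries: it was lost without MV-3 replicate 1 or either A-549 replicate, at limma adjusted p of 0.0157 to 0.0224. Library scaling alone brought miR-23b-3p to 0.80, miR-27b-3p to 0.81 and miR-27b-5p to 0.62, the last no longer called (limma adjusted p = 0.0116). It also had miR-27a-3p at -1.13 (limma adjusted p = 0.000518), miR-24-2-5p at -1.83 (limma adjusted p = 0.00295) and miR-27a-5p at -0.92 called lower in A-549, of which miR-27a-5p was level at 0.024 with TMM scaling. The median absolute log2 fold change was 0.88 over the members and 1.04 over the tested names.

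A-549 had more than Huh-7 of 9 members, and none was called lower, against 52.3% of names called, 28.6% higher and 23.7% lower. The differences ranged from 3.01 for miR-23a-3p to 4.05 for miR-27a-5p on the log2 scale in cluster a, and were 1.65 for miR-23b-3p, 1.70 for miR-27b-3p and 1.94 for miR-27b-5p in cluster b, and 1.85 for miR-24-3p. Library scaling alone reduced those of cluster b to 0.18, 0.22 and 0.48 in that order, none of them called, and kept the calls of the 5 cluster a members, with miR-23a-3p at 1.54. The median absolute log2 fold change was 2.48 over the members and 1.74 over the tested names.

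**Figure D2:**
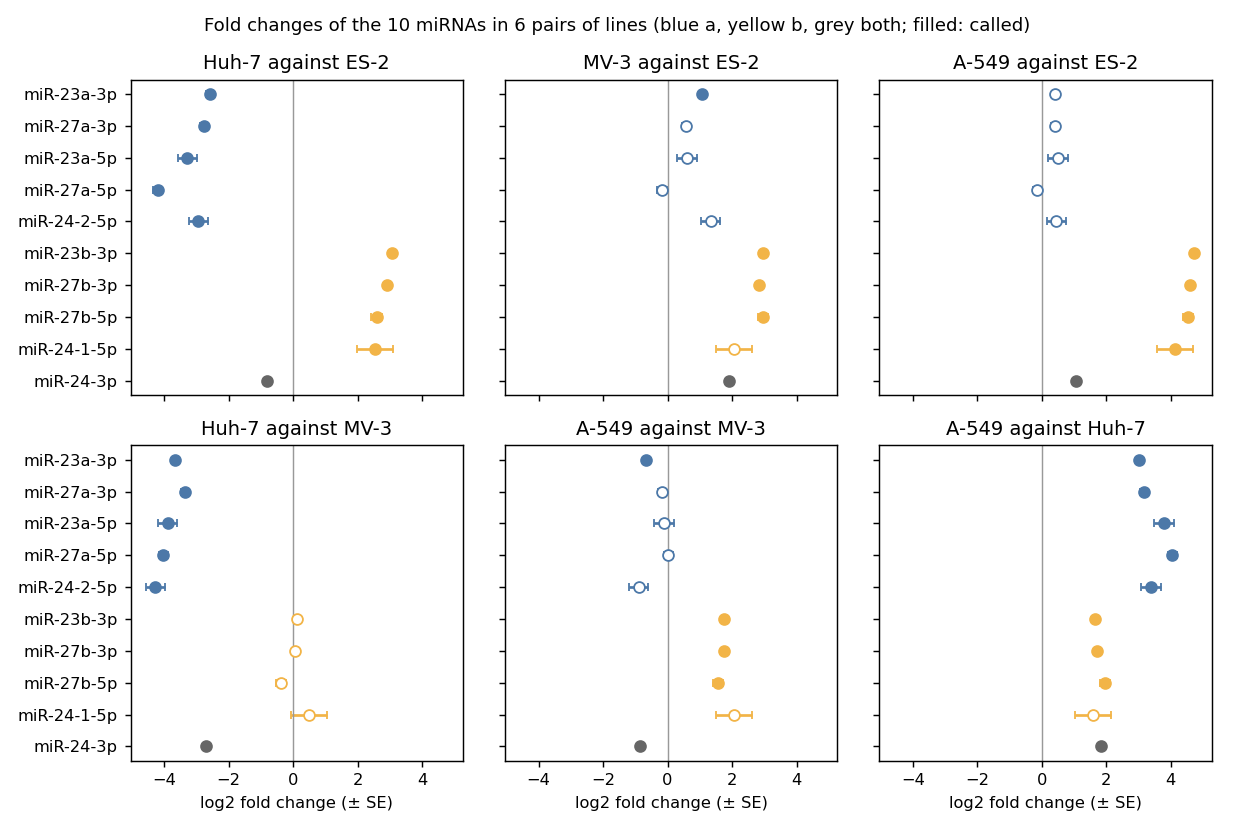
Log2 fold changes of the 10 miRNAs with standard errors in the 6 pairs of lines, from the limma fit to log2(normalised CPM + 1), with cluster a in blue, cluster b in yellow and miR-24-3p in grey. Filled symbols mark limma adjusted p below 0.01, and in Huh-7 against ES-2 the blue and yellow symbols lie on opposite sides of 0. In pairs with ES-2, a filled symbol of miR-24-1-5p is not counted as a call. It had 0 reads in ES-2 and passed the filter through the lines where it was high, so its fold changes there depend on the added 1.

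A ratio of paralogs within a library needs no scaling between libraries, so the balance of the clusters was compared directly from recovered reads. Reads of different miRNAs are captured with unequal efficiency, and such a ratio counts reads and not molecules. Of the miR-23-3p reads, miR-23b-3p held 62.5% and 64.9% in the Huh-7 replicates, 40.6% and 40.6% in A-549, 11.2% and 11.5% in MV-3, and 3.29% and 3.36% in ES-2. In reads, miR-23a-3p exceeded miR-23b-3p by 29.1-fold in ES-2, 7.81-fold in MV-3 and 1.46-fold in A-549, and was at 0.569 of it in Huh-7. The log2 ratio of a to b thus spanned 5.68 from ES-2 to Huh-7, 51.1-fold, while the largest SD within a line was 0.11. In an exact permutation test over all ways to split 8 libraries into 4 pairs, p was 0.00952, the smallest possible, and the adjusted p over 12 ratios tested was 0.0229.

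The miR-27-3p pair shifted by a similar span from another starting point. miR-27b-3p held 94.9% and 94.7% of miR-27-3p reads in Huh-7, 85.7% and 87.6% in A-549, 64.4% and 61.3% in MV-3, and 24.5% and 27.9% in ES-2. Read for read, miR-27a-3p led in ES-2 by 2.82-fold, and miR-27b-3p led in the other lines, with an a to b ratio of 0.0549 in Huh-7, 0.154 in A-549 and 0.591 in MV-3. The span was 5.69 on the log2 scale or 51.5-fold, with an exact permutation p of 0.00952 and an adjusted p of 0.0229. In both 3p pairs the cluster b share rose in the order ES-2, MV-3, A-549 and Huh-7, with no overlap between lines.

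Of the 5p arms, which differ more in sequence than the 3p arms, the miR-27 pair gave the same order of lines. By the miR-24 pair, ES-2 and MV-3 could not be ranked, and Huh-7 replicate 2 was close to A-549. miR-27b-5p held 91.4% ± 1.02 of miR-27-5p reads in Huh-7, 70.0% ± 0.446 in A-549, 44.3% ± 3.85 in MV-3 and 8.11% ± 1.20 in ES-2, a span of 6.89 on the log2 scale (exact permutation p = 0.00952, adjusted p = 0.0229). The miR-24 5p arms, named after their separate hairpins, are the only reads that tell the clusters' miR-24 apart. miR-24-1-5p held 0 of 89 and 0 of 84 reads in ES-2, with 95% Wilson intervals that reached 4.14% and 4.37%. Its share was 1.68% and 3.17% in MV-3 and 17.0% and 21.1% in A-549. In Huh-7 it was 65.3% and 25.0%, where the 95% Wilson intervals, 51.3% to 77.1% and 12.7% to 43.4%, did not overlap. The lower interval, that of replicate 2, included both A-549 shares. With 0.5 reads added, the log2 span was 7.13 (exact permutation p = 0.00952, adjusted p = 0.0229). With 3 reads as the floor in ES-2, its a to b ratio was at least 28.8, at least 23.2-fold above that of Huh-7, whereas no bound above MV-3 could be given. Against Huh-7 replicate 2 alone, without replicate 1, the bound was 10.1-fold, and without replicate 2 it was 53.5-fold.

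**Figure D3:**
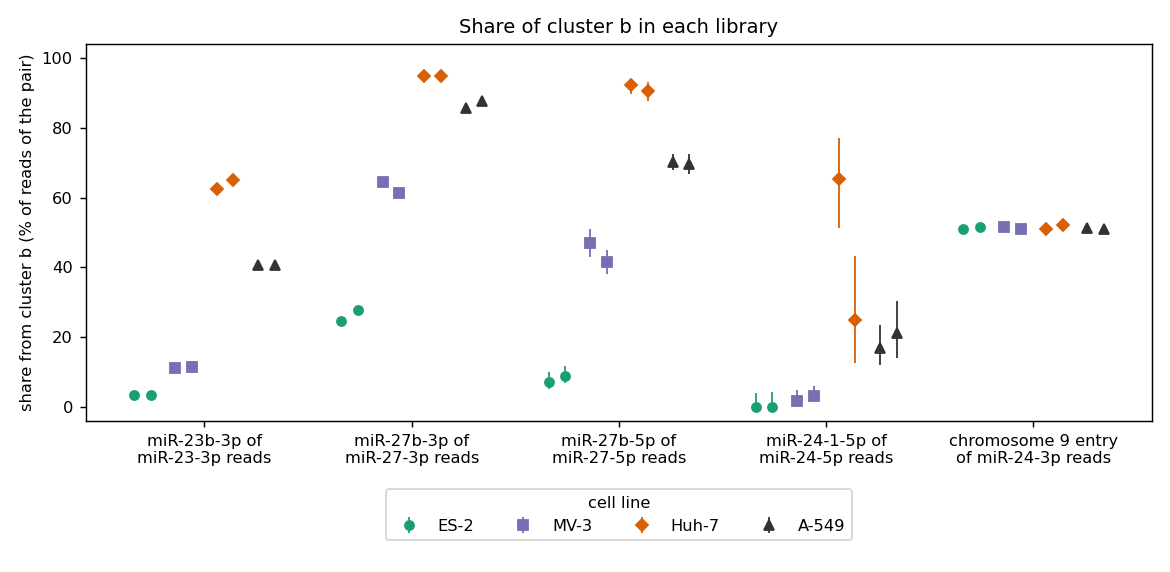
Share of cluster b, in percent of the reads of each paralogous pair, in each library, with 95% Wilson intervals for counting error and 1 colour and shape per cell line. For the first 3 pairs ES-2 lies lowest, followed by MV-3, for the miR-24 5p pair these lines lie close together at the bottom, and for miR-24-3p the chromosome 9 entry stays between 50.9% and 52.2% in the 8 libraries.

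The table entries of miR-24-3p itself did not carry this balance. Its chromosome 9 entry held 51.6% of its reads in Huh-7, 51.3% in MV-3, 51.3% in ES-2 and 51.1% in A-549, with a log2 span of 0.024 and an exact permutation p of 0.933 (adjusted p = 0.933). Near-even entries were usual in this table: of 22 names with 2 entries on different chromosomes and at least 1000 reads, 19 had at least 40% of reads in the lower entry. Because the mature sequence is identical at both loci, the entries cannot be read as the output of each cluster. Whether a read matching both loci was counted once or at each was not stated, so the summed miR-24-3p level may count reads more than once. With the higher entry alone in place of the sum, each comparison called as many members. As the split hardly varied between libraries, this could not show whether reads were counted more than once.

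As paralogs share a seed, the summed level per seed is of interest as well. miR-23a-3p and miR-23b-3p added up to 29570.1 ± 2178 normalised CPM in MV-3, 27883 ± 849 in A-549, 12825 ± 473 in ES-2 and 5666 ± 425 in Huh-7. This sum spanned 5.22-fold, less than the 12.7-fold and 26.6-fold of its parts, and MV-3 and A-549 overlapped. miR-27a-3p and miR-27b-3p added up to 26375 ± 1774 in A-549, 7439 ± 357 in Huh-7, 10685 ± 305 in MV-3 and 3599 ± 49.8 in ES-2. That sum spanned 7.33-fold, with ES-2 lowest, whereas the miR-23 sum was lowest in Huh-7. The 10 members together took 6.85% of the reads in MV-3, 3.92% in A-549, 2.67% in Huh-7 and 1.86% in ES-2, with the entries of miR-24-3p summed.

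**Figure D4:**
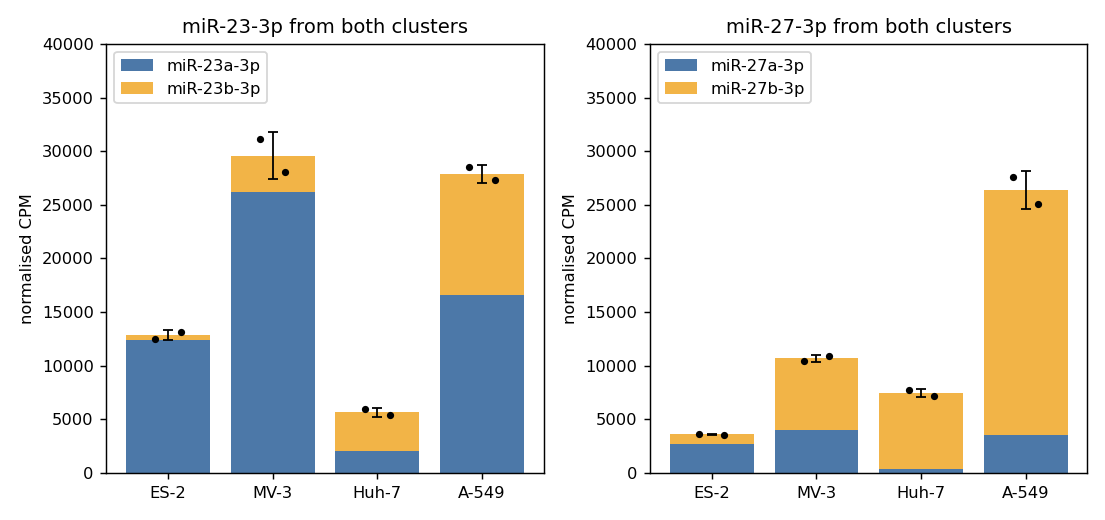
Normalised CPM of the miR-23-3p pair (left) and the miR-27-3p pair (right) stacked by cluster, as line means, with points for the 2 libraries and bars for the SD of the sum. Cluster a makes up most of the miR-23 column in ES-2, MV-3 and A-549, and cluster b most of the miR-27 column in MV-3, Huh-7 and A-549.

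Within a cluster the proportions spanned less than those between paralogs. The ratio of miR-23a-3p to miR-27a-3p reads was 6.60 in MV-3, 5.30 in Huh-7, 4.72 in A-549 and 4.67 in ES-2, a log2 span of 0.50 (exact permutation p = 0.124, adjusted p = 0.165). In cluster b the ratio of miR-23b-3p to miR-27b-3p was inverted, from 0.453 in ES-2 to 0.511 in Huh-7, a span of 0.17 (exact permutation p = 0.0857, adjusted p = 0.129). Neither passed the threshold of 0.05, which does not show that the ratios were equal. Nor did miR-24-2-5p to miR-27a-3p (adjusted p = 0.129, exact permutation test) or miR-24-1-5p to miR-27b-3p (adjusted p = 0.571, exact permutation test).

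The read ratio of the arms differed among lines for 1 hairpin. The ratio of miR-27a-3p to miR-27a-5p reads was 26.7 in Huh-7, 13.8 in A-549, 15.9 in MV-3 and 9.46 in ES-2, a log2 span of 1.49 (exact permutation p = 0.00952, adjusted p = 0.0229). In reads, the 3p arm thus led most in Huh-7, where the hairpin's products were rarest. Behind the Huh-7 values stood 51 and 42 reads of miR-27a-5p. Huh-7 held 25921 and 19931 reads of miR-27b-3p beside 1398 and 1112 of miR-27a-3p, and ES-2 held 1282 and 1934 beside 3953 and 5005. Reads ending within the shared bases would match both paralogs, and the part of their assignment in this ratio was not tested. For miR-27b the ratio of 3p to 5p was 46.1 in Huh-7, 38.6 in A-549, 37.7 in ES-2 and 33.9 in MV-3 (exact permutation p = 0.0286, adjusted p = 0.0571). For miR-23a it was 211 in Huh-7, 168 in MV-3, 121 in ES-2 and 114 in A-549 (exact permutation p = 0.190, adjusted p = 0.229).

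**Figure D5:**
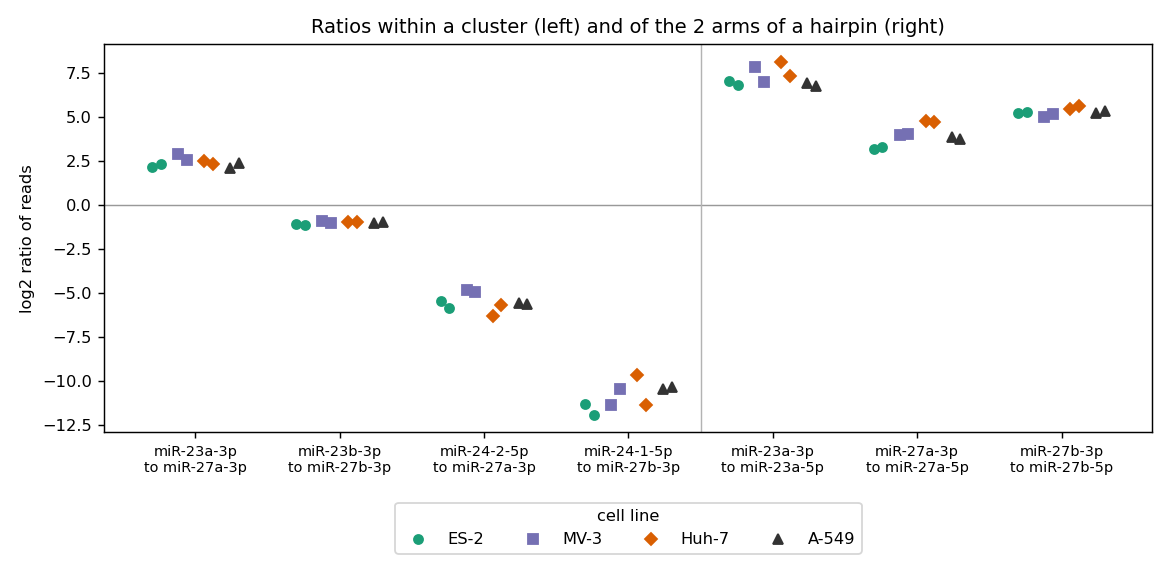
Log2 ratios of reads in each library between members of a cluster (left of the line) and between the arms of a hairpin (right), with 0.5 reads added to each count and 1 colour and shape per cell line. The ratios of miR-23b-3p to miR-27b-3p lie closest together, and miR-27a-3p to miR-27a-5p is highest in both Huh-7 libraries.

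Relatives of the members by sequence or position were examined alongside. miR-23b-5p, the other arm of miR-23b, followed cluster b with 138 ± 28.0 normalised CPM in A-549, 31.4 ± 3.36 in Huh-7, 43.5 ± 0.227 in MV-3 and 5.92 ± 5.43 in ES-2. miR-23c, an X-linked relative with the miR-23 seed, had at most 2 reads in a line. miR-128-3p (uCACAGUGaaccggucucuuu, seed in capitals) is shown because its seed is that of miR-27 moved by 1 base. It took another order, with 3009 ± 315 normalised CPM in Huh-7, 2089 ± 141 in MV-3, 1941 ± 50.4 in ES-2 and 1201 ± 56.7 in A-549, so the line richest in miR-27 had the least miR-128-3p. The products of MIR3074, encoded opposite to MIR24-1 on chromosome 9, had at most 30 reads per line and arm.

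Names outside the clusters with the most similar profile were sought among 173 tested miRNAs averaging 100 normalised CPM or more, by Pearson's r of log2(normalised CPM + 1) over 8 libraries, which are 4 pairs of replicates. Closest to the summed 3p arms of cluster a were miR-342-3p (r = 0.984), let-7a-3p (r = 0.982) and miR-92b-3p (r = 0.976). Pearson's r does not reflect the size of the differences. miR-342-3p was at 188 normalised CPM in MV-3, 169 in A-549, 136 in ES-2 and 59.7 in Huh-7, while the cluster a sum spanned 12.3-fold. let-7a-3p, a minor arm of let-7 hairpins, was at 267 normalised CPM in MV-3, 199 in A-549, 168 in ES-2 and 6.78 in Huh-7. Cluster b, by its summed 3p arms, was most like miR-365a-3p (r = 0.975), miR-99b-5p (r = 0.970) and miR-143-3p (r = 0.953). miR-143-3p, known from smooth muscle, was at 2561 normalised CPM in A-549, 251 in Huh-7, 1038 in MV-3 and 17.1 in ES-2. The clusters' own summed 3p arms had an r of 0.0232 with each other over the same libraries.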

How the data were processed

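Small RNA libraries, 2 for each of the 4 lines, had been prepared from 50 ng of total RNA. Per the labels and the study's methods, the authors trimmed reads with cutadapt 1.14, aligned them to the human genome (hg38) with Bowtie2 2.3.2, counted miRBase mature miRNAs with featureCounts 1.5.3 and normalised with edgeR 3.18.1. The use of strand, the treatment of reads with several alignments and that of random adapter bases were not given in the sources used here, so reads were not treated as molecules. The authors deposited normalised signal values, which are CPM divided by a TMM factor per library (0.593 to 1.70 as recovered).

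Within a library all values are multiples of the worth of 1 read, so reads and library sizes could be recovered (100% of values whole at a tolerance of 0.001). Entries of a name were summed. The members and lists were chosen with earlier results of these data known. limma 3.58.1 (R 4.3.3) was run on log2(normalised CPM + 1) with a trended prior over all 8 libraries and 1 term per line, for 528 names passing edgeR's filter for low reads. Adjusted p-values are Benjamini-Hochberg values over these names, called below 0.01. Ratios of 2 miRNAs, log2 with 0.5 reads added, were compared among lines with an exact permutation test of F over all partitions of 8 libraries into 4 pairs, adjusted over 12 ratios and called below 0.05. For 1 pair of lines, 2 against 2 libraries, such a test cannot go below 0.333, and none was run. The study's supplement calls the small RNA-seq replicates of its cell lines biological. The sources do not say whether they were separate cultures, so p-values measure the spread between these samples. Simulated counts for Huh-7 against ES-2, with 200 of 528 names changed 4-fold, gave 85% of changed names back, 0 false calls and 0 wrong directions. All names were simulated with a common dispersion, and the lines differed only by the changed names in Huh-7. The data are less uniform, so these figures are a check of the code and not error rates for the data.

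Named miRNAs were, by rule, the 10 members, 5 relatives by sequence or locus, and for each cluster the 3 other names with the most similar profile. A marker list was read for the lines. Its entries not given above were miR-885-5p (3181 normalised CPM in Huh-7, at most 2.11 elsewhere), miR-141-3p (at most 5.25) and the mesenchymal miR-214-3p (33.4 in MV-3, at most 3.68 elsewhere). Sequences came from RefSeq (GRCh38.p14), where 10 members and 5 relatives were found, and host genes from the GENCODE annotation. Alternatives were RLE or library scaling, other filters and pseudocounts, the higher entry of a name, only the lines compared, edgeR 4.0.16 and DESeq2 1.42.0 on recovered reads, a replicate block and leaving out each library. edgeR called 371 names among the lines, and limma 360.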

Additional observations from a re-analysis of the deposited data

Results flagged for a closer look

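The balance of cluster a and cluster b differed among the 4 lines by a test of that difference itself, an exact permutation test with an adjusted p of 0.0229 in each case over 12 ratios. From the highest line, ES-2, to the lowest, Huh-7, the log2 ratio of reads spanned 5.68 for miR-23a-3p to miR-23b-3p, 5.69 for miR-27a-3p to miR-27b-3p and 6.89 for miR-27a-5p to miR-27b-5p. For miR-24-2-5p to miR-24-1-5p it spanned 7.13, a value that depends on the 0.5 reads added, since miR-24-1-5p had 0 reads in ES-2, and its rank of ES-2 above MV-3 rests on them as well.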

How the results depend on the processing

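Each group held 2 libraries, and depth limited the members near the floor, above all miR-24-1-5p. Lowering the demand to an adjusted p below 0.05 raised the members called for MV-3 against ES-2 from 5 to 8, miR-24-1-5p counted. Over all 528 names it raised the calls from 136 to 188. With 1 read added in place of 0.5, miR-27b-3p to miR-27b-5p (log2 span 0.44) came to an adjusted p of 0.0381 by exact permutation test. Scaling by library reads alone turned the log2 fold change of miR-24-3p in Huh-7 against ES-2 to 0.16, of miR-27a-5p in MV-3 against ES-2 to 0.27, of miR-23a-3p, miR-27a-3p, miR-23a-5p and miR-24-2-5p in A-549 against ES-2 to -0.095, -0.11, -0.0099 and -0.060, of miR-27b-5p and miR-23b-5p in Huh-7 against MV-3 to 0.15 and 0.045, and of miR-27a-5p in A-549 against MV-3 to -0.92. Near 0 in the first place, miR-27b-3p in Huh-7 against MV-3 went to -0.027 with RLE scaling and -0.033 with DESeq2, and miR-23a-5p in A-549 against MV-3 to 0.027 with RLE scaling. Leaving out a library also turned the sign of miR-24-1-5p in Huh-7 against MV-3 (-0.30 without Huh-7 replicate 1, up to 1.26 without Huh-7 replicate 2), of miR-23a-5p in A-549 against MV-3 (0.25 without MV-3 replicate 2, down to -0.46 without MV-3 replicate 1) and of miR-27a-5p in the same pair (-0.051 without MV-3 replicate 1 and -0.079 without A-549 replicate 1, up to 0.13 without A-549 replicate 2). The cause of these changes was not tested.

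Leaving out each library in turn left a lone library in its line, so members called are not counted for these fits. The spans of the a to b ratios then lay at 5.60 to 5.75 for miR-23-3p, 5.56 to 5.81 for miR-27-3p, 6.73 to 7.05 for miR-27-5p and 5.92 to 8.34 for miR-24-5p, with an adjusted p of at most 0.0457 by exact permutation test. Deviations of same-numbered libraries correlated at -0.05 to 0.23 over the 6 pairs of lines, with only Huh-7 and ES-2 (0.23) above 0.1. These values do not settle whether replicate numbers pair the libraries. With the number as a replicate block, the spans of 5.68, 5.69, 6.89, 7.13 and, for miR-27a-3p to miR-27a-5p, 1.49 had an adjusted p of 0.0833, as the blocked exact permutation test cannot go below 0.0417 before adjustment. The block called 10 members among the lines, against 361 of 528 names, with miR-24-1-5p included in the counts of members here. It called 9 for Huh-7 against ES-2 (249 of 528 names), where miR-24-1-5p was lost (limma adjusted p = 0.0134). For A-549 against ES-2 it called 6 (207 of 528 names), where miR-23a-3p was gained (limma adjusted p = 0.00880). The counts of members in the other 4 pairs stayed as they were. Over all 6 pairs of lines and all alternatives, 1251 values of single miRNAs kept direction and call, 52 lost a call, 47 gained one and 16 changed sign.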
